A study of Mus musculus with 101 samples.

Results

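Mouse embryonic stem cell lines whose names carry the prefix B1 were compared with lines whose names carry the prefix B2. The members were all columns of the deposited region table that start with these prefixes, 28 for B1 and 18 for B2, or 46 of the 85 columns of the table. All of these lines came from Diversity Outbred mice and were grown in the same medium, serum and LIF with 2i. The sources used here give no other treatment, genotype, sex, passage or age for either group, and they do not say what the prefixes mean. The study set out to measure how much DNA methylation varies among such lines. DNA methylation was read by EM-seq after capture of a panel of target regions, and each table value is the methylated fraction of a region in 1 column, given here as percent. Differences are given in percentage points, B1 minus B2 unless stated.

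The Diversity Outbred stock is a mouse population bred from several inbred founder strains, so each line derived from it carries its own mosaic of founder alleles. EM-seq tells methylated from unmethylated cytosines by enzymatic conversion, without bisulfite. Naive embryonic stem cells kept in 2i, a pair of inhibitors of MEK and GSK3, are known for low DNA methylation across the genome. Imprinted control regions normally keep methylation on the allele of 1 parent, and their methylation can be lost in such cultures. Promoters of many germline genes are silenced by methylation in somatic cells and lie at lower levels in naive cells.

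Of the 868 regions of the table, 777 had a value in at least 80% of the B1 columns and of the B2 columns and were kept. Another 91 were set aside, 23 of them with no value in any of the 46 columns. Of all 868 regions, single columns lacked 29 to 104 in B1 (median 56.5) and 25 to 109 in B2 (median 46.5). Without read counts in the tables, the depth of a value is unknown. A name ending in N occurred in 6 B1 columns and in 0 B2 columns (the sources used here do not explain this letter). Lines with 2 titles numbered 5 in B1 and 4 in B2. The other 23 B1 and 14 B2 columns are called 1-title lines below. They include A16, whose name is in no title, and A9N, B15N, B43N and C13N, whose titles lack the N. The columns are not stated to be separate cultures, so the p-values below measure only their spread, which may be technical. The B1 columns B37 and B37N differ in name by the final N. They correlated across regions at r = 0.970, and 4 of 1035 pairs of columns correlated more strongly.

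The overall methylation level of the B1 lines did not differ from that of the B2 lines beyond the spread between lines. Over the 777 regions, the mean level of the B1 lines was 24.3% ± 9.22 (SD, n = 28), with a lowest line at 7.88%, a median of 25.8% and a highest line at 43.5%. The B2 lines averaged 20.6% ± 8.40 (SD, n = 18), with a lowest line at 5.59%, a median of 19.3% and a highest line at 38.3%. The ranges overlapped over most of their length: B1 line B29 was the lowest of its group and C17 and A5 the highest, while B2 line 31 was the lowest and line 9 the highest of theirs. The difference of 3.71 points had a 95% interval of -1.7 to 9.1 points and a two-sided permutation p of 0.175. The interval was found by inverting the permutation test. The 6 B1 columns with a final N averaged 25.8% ± 6.15, and without them the difference was 3.31 points (permutation p = 0.270). Lines with 2 titles averaged 30.6% ± 8.19 (n = 5) in B1 and 28.6% ± 7.89 (n = 4) in B2, and 1 of them in each group, B33 at 20.98% and 11 at 20.1%, lay below its group's mean. Among the 1-title lines the difference was 4.64 points (permutation p = 0.112, n = 23 and 14).

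**Figure D1:**
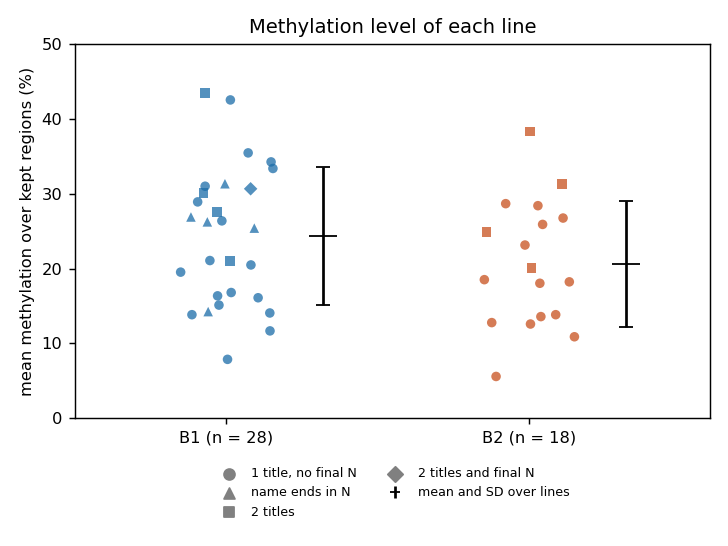
Each point is 1 line, its mean methylation over the 777 kept regions in percent, for 28 B1 and 18 B2 lines, with the symbol giving whether the column name ends in N and whether the line has 2 titles. The bars give the mean and SD over lines, 24.3% ± 9.22 in B1 and 20.6% ± 8.40 in B2, and the groups overlap from about the lowest to about the highest lines.

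Variability between lines, the quantity the study was designed to measure, did not differ between the prefixes either. The SD of the line levels in B1 was 1.10 times that in B2 (two-sided permutation p = 0.624). The interquartile range was 14.4 points in B1 and 12.9 points in B2 (ratio 1.12, permutation p = 0.597). Region by region, the SD over lines was larger in B1 at 564 of 777 regions, with a median ratio of 1.12. These regions share the same lines and are not independent of each other.

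At single regions, the values as deposited gave no difference that passed the threshold. Limma's moderated test on log2 odds called 0 of 777 regions (0.0%) at a Benjamini-Hochberg adjusted p of 0.05, and 84 (10.8%) had an unadjusted p under 0.05. Of those 84, 80 had the higher value in B1 and 4 in B2. The B1 mean was above the B2 mean at 666 of 777 regions, with a median difference of 2.77 points and a range from -10.04 to 17.5 points. The difference grew with the level of the region. Its median was 0.14 points at the 197 regions with a mean under 5%, 1.43 points at the 201 regions between 5% and 20%, 4.66 points at the 186 regions between 20% and 40%, and 8.69 points at the 193 regions above 40%. In that highest class the B1 mean was above the B2 mean at 193 of 193 regions, none of which passed the threshold.

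**Figure D2:**
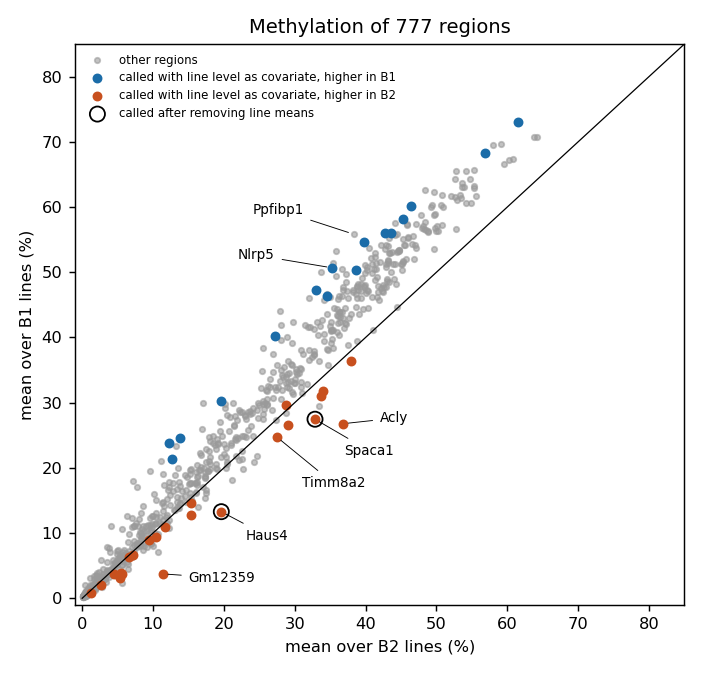
Each point is 1 of 777 regions, with the mean of the 18 B2 lines on the horizontal axis and the mean of the 28 B1 lines on the vertical axis, both in percent, and the line marks equal means. Colours mark the 39 regions called with the line's overall level as a covariate and rings the 2 regions called after removal of each line's mean. Regions with a high mean lie above the line, and Haus4, Spaca1, Acly and Gm12359 lie below it.

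The region with the smallest p in the values as deposited lay in the gene model Gm12359 (chr11:98809119-98809532) and was higher in B2. Its B1 lines ran from 0.0% to 25.9% with a median of 1.31%, and its B2 lines from 0.94% to 40.8% with a median of 11.4%. A level above 10% was seen in 3 of 28 B1 lines and 10 of 18 B2 lines, and the groups overlapped. Means were 3.74% ± 6.16 and 11.3% ± 9.96, a difference of -1.72 on the log2 odds scale with limma's adjusted p = 0.178. It passed the threshold only when B1 line A22 (adjusted p = 0.0493) or B14 (adjusted p = 0.0301) was left out. The 3 CpGs of the region in the CpG table were all higher in B2, by 4.92 to 13.2 points. Across all 7917 CpGs of that table, 72.7% had the higher mean in B1.

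Removing each line's mean over the 777 regions asks whether a region departs from the level of its own line. With line means removed, limma called 2 of 777 regions (0.257%), and 136 (17.5%) had an unadjusted p under 0.05. Both called regions were higher in B2 (0.257%) and 0 were higher in B1 (0.0%). Centring by the column median in place of the mean called 12 regions higher in B1 and 2 in B2. The same value is subtracted at every region of a line. Regions near 0% in both groups therefore come out lower in B1 by about the difference in overall level, by construction. For that reason the direction of a centred difference is read here only for regions whose deposited means also differ in that direction. This rule does not set apart regions with a high level, where the deposited mean was also higher in B1. After centring, the value was higher in B1 at 189 of the 193 regions above 40% and at 0 of the 197 under 5%.

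The first called region lay in Haus4 (chr14:54553072-54553833), which encodes a subunit of the augmin complex that seeds microtubules in the mitotic spindle. Its B1 lines ran from 1.46% to 30.9% with a median of 12%, and its B2 lines from 3.63% to 40.5% with a median of 16.97%. The groups overlapped in level, and 13 of 18 B2 lines lay above the B1 median. Means were 13.3% ± 6.73 in B1 and 19.6% ± 10.9 in B2. Relative to the line's own level, 1 of 28 B1 lines lay above the B2 median. The centred difference was -10.1 points (95% interval -14.8 to -5.36, limma's adjusted p = 0.0422). Of the CpGs of the region with a value of their own, 9 of 9 were higher in B2, by 5.36 to 13.3 points.

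The second called region overlapped the start of Spaca1 (chr4:34049789-34050289), which encodes a membrane protein of the sperm acrosome. Its B1 lines ran from 7.67% to 55.5% with a median of 26.98%, and its B2 lines from 6.42% to 56.3% with a median of 33.6%. Levels overlapped almost completely. Means were 27.5% ± 13.4 and 32.9% ± 11.8, which in the values as deposited gave limma's adjusted p = 0.484. Relative to the line's own level, 3 of 28 B1 lines lay above the B2 median and 17 of 18 B2 lines above the B1 median. The centred difference was -9.10 points (95% interval -13.5 to -4.75, limma's adjusted p = 0.0422). Of its CpGs with a value of their own, 5 of 6 were higher in B2 and 1 in B1, with differences from -10.5 to 0.35 points.

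Both calls depended on which lines were used. With only 1-title lines limma's adjusted p was 0.0363 at Haus4 and 0.0344 at Spaca1. Without the 6 columns ending in N the centred differences were -9.30 points at Haus4 and -7.77 points at Spaca1, and limma's adjusted p was 0.267 for each, with 0 regions called and 71 at an unadjusted p under 0.05. With B37 and B37N averaged, an alternative chosen after seeing the data, limma called 0 regions and 145 had an unadjusted p under 0.05, with a smallest adjusted p of 0.0626. Leaving out 1 line at a time, Haus4 kept its call in 23 of 46 fits and Spaca1 in 21 of 46, with limma's adjusted p from 0.0131 to 0.0831 and from 0.0212 to 0.0838.

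**Figure D3:**
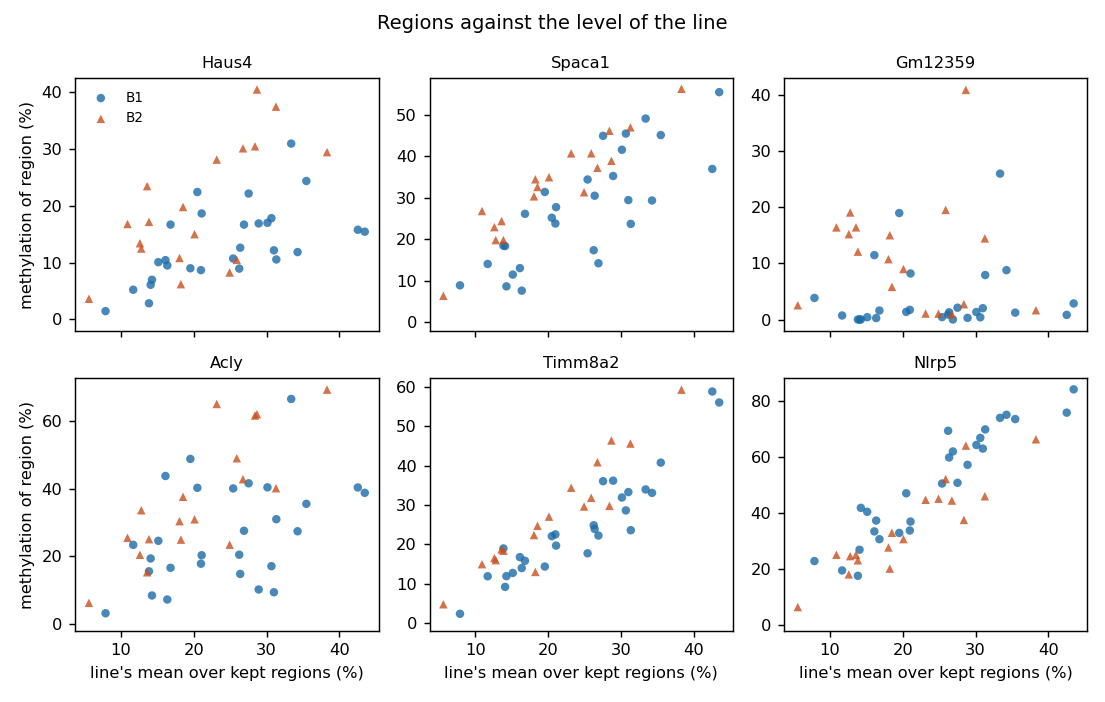
Each panel shows 1 region, with the line's mean over kept regions in percent on the horizontal axis and the methylation of the region in percent on the vertical axis, for 28 B1 lines (circles) and 18 B2 lines (triangles). At Haus4, Spaca1, Acly and Timm8a2 most B2 lines lie above B1 lines of like overall level, at Nlrp5 most lie below, and at Gm12359 low values occur in lines of all levels.

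Entering the line's mean log2 odds as a covariate allows each region its own slope with the overall level. This fit called 39 of 777 regions (5.02%), 16 higher in B1 (2.06%) and 23 higher in B2 (2.96%). Differences of this fit are given on the log2 odds scale at equal overall level. The covariate is the mean of the same values that are tested. Over all 777 regions the differences therefore lie around 0 by construction (median 0.0066, 396 higher in B1). A call thus places a region relative to the others, and calls in both directions are not a separate finding. The 16 regions called as higher in B1 had means over the 46 lines of 18.02% to 68.5% (median 45.2%). The 23 called as higher in B2 had means of 1.01% to 37% (median 11.3%). Coro6, called as higher in B2, had the higher deposited mean in B1 (29.6% and 28.7%). Haus4 (-0.85, limma's adjusted p = 0.0172), Spaca1 (-0.73, adjusted p = 0.00538) and Gm12359 (-1.72, adjusted p = 0.0172) were among those higher in B2. These 3 were called in 46 of 46 fits that left out 1 line. Without the columns ending in N the fit called 12 regions, all 12 among the 39, with 4 higher in B1 and 8 in B2. Spaca1 was still called in that fit (adjusted p = 0.0193), Haus4 (0.0774) and Gm12359 (0.0886) were not.

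Target regions at germline genes had a median difference near that of all regions. Of the 113 kept regions of the germline_Dahlet category, 94 (83.2%, against 85.7% of all 777) had the higher mean in B1. Their median difference was 2.93 points, against 2.77 over all 777 regions. After removal of line means 1 of the 113 was called, Spaca1. With the level as covariate 9 of the 113 were called, 4 higher in B1 and 5 in B2, against 39 of all 777 regions (5.02%), of which 2.06% were higher in B1 and 2.96% in B2. The sequences upstream of the transcript starts of 4 of these genes are shown to place their CpGs, from the RefSeq promoter table (GRCm38.p6, the coordinates of mm10), clipped to the target region and written 5′ to 3′ on the strand of the gene. Capitals mark each CG dinucleotide. Spaca1 is at chr4:34050066-34050289 on the minus strand, Nlrp5 at chr7:23385639-23385888 on the plus strand, Rec114 at chr9:58741560-58741809 on the minus strand and Timm8a2 at chr14:122034424-122034673 on the plus strand.
Spaca1: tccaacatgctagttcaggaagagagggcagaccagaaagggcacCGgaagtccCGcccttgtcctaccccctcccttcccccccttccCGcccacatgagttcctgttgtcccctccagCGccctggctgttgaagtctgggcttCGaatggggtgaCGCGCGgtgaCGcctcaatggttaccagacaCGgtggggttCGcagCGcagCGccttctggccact
Nlrp5: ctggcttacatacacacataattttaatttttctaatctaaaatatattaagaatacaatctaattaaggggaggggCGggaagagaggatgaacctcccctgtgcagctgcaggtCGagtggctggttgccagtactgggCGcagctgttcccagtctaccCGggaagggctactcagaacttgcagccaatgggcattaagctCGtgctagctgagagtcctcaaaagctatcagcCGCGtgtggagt
Rec114: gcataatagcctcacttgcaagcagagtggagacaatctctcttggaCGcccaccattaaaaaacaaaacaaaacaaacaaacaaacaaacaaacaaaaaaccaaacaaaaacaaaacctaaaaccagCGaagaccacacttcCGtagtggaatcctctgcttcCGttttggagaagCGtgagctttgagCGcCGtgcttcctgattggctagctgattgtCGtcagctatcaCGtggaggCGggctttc
Timm8a2: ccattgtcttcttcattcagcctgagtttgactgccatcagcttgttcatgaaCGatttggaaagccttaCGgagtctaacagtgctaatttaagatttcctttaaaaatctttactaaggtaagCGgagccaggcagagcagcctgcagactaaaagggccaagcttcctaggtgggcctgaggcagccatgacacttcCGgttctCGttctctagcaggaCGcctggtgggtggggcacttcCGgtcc

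The Spaca1 stretch holds 13 CG dinucleotides, 0 of them with a value in the CpG table, and the Rec114 stretch 10, while Nlrp5 and Timm8a2 hold 7 each. Nlrp5 encodes an oocyte protein of the subcortical maternal complex, which the early embryo needs. Its region (chr7:23385638-23386138) ran from 17.6% to 84.2% in B1 with a median of 50.7%, and from 6.47% to 66.4% in B2 with a median of 31.9%. Means were 50.7% ± 19.5 and 35.3% ± 16.05, the largest difference among the germline_Dahlet regions, with limma's adjusted p = 0.407 as deposited and 0.0740 with line means removed. With the level as covariate it was called as higher in B1 (0.62, adjusted p = 0.0153), and without the columns ending in N it was not (adjusted p = 0.0984). At the pair of CpGs of the printed stretch held in the CpG table, the C at base 239 averaged 55.02% ± 23.5 in B1 and 40.2% ± 20.8 in B2. The C at base 241 averaged 32.6% ± 18.3 and 20.8% ± 13.2. Bases are counted from 1 at the 5′ end of the printed stretch. Both positions were higher in B1, with groups that overlapped.

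Rec114, which is needed to form the DNA breaks that start meiotic recombination, also had the higher mean in B1. Its region (chr9:58741309-58741809) averaged 23.8% ± 16.7 in B1 (3.57% to 57.4%, median 21.3%) and 12.3% ± 8.67 in B2 (3.07% to 37.05%, median 9.47%). Of its CpGs with a value of their own, 15 of 15 were higher in B1, by 5.65 to 16.3 points. Limma's adjusted p was 0.407 as deposited, 0.0985 with line means removed and 0.0484 with the covariate. That last call held in 14 of 46 fits that left out 1 line and was lost without the columns ending in N (adjusted p = 0.218) and with 1-title lines (0.0718).

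Timm8a2, a paralogue of a chaperone of mitochondrial protein import, ran the other way. Its region (chr14:122034423-122034923) averaged 24.7% ± 13.2 in B1 (2.33% to 58.9%, median 22.4%) and 27.4% ± 13.9 in B2 (4.75% to 59.3%, median 25.9%). The deposited levels of the groups were close to identical in range. With the level as covariate it had the smallest p of all regions (-0.59, limma's adjusted p = 0.00449), and it was called without the columns ending in N too (adjusted p = 0.0132). The CpGs of the printed stretch differed among themselves. At bases 54, 71 and 126 the B1 means were 35.4%, 59.7% and 43.9% and the B2 means 36.6%, 63.1% and 42.3%. Nearer the start, at bases 201, 208, 223 and 245, the B1 means were 13.1%, 9.78%, 5.87% and 4.64% and the B2 means 20.6%, 16.8%, 8.75% and 7.94%. The 4 CpGs nearer the start thus had lower methylation in both groups and were higher in B2, while the 3 farther upstream did not share 1 direction.

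Zp3, a glycoprotein of the egg coat, had the smallest unadjusted p among regions higher in B1, at a low level: 3.04% ± 2.43 in B1 and 1.12% ± 1.01 in B2 (limma's adjusted p = 0.407). Of the 13 kept regions of a list of genome-defence genes, which silence transposons in the germline, 13 had the higher mean in B1 (median difference 5.01 points). Among the 13 are overlapping regions of Fkbp6 (chr5:135349473-135349972 and chr5:135349794-135350294), which are not separate evidence. Of all 777 regions, 666 (85.7%) had the higher mean in B1. With the level as covariate 8 of the 13 were higher in B1, against 396 of all 777. None of these 13 passed the threshold in any of the 3 fits. Gtsf1, a piRNA pathway factor, averaged 42.6% ± 15.7 and 33.8% ± 12.7, and Morc1, which represses transposons in male germ cells, 10.6% ± 9.34 and 5.55% ± 6.15. Ddx4, the germ cell RNA helicase also called Vasa, lay close in both groups at 11.5% ± 4.53 and 10.9% ± 4.0. Tex19.1, at 6.14% ± 4.34 and 6.14% ± 5.35, was also near equal.

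Imprinted regions lay in the same direction as the overall level with 1 exception. Of the 23 regions of the imprinting category, 22 had the higher mean in B1, against 666 of all 777 regions (85.7%). Their median difference was 4.81 points, and none passed the threshold as deposited or with line means removed. The largest difference was at Impact (chr18:12972743-12974522), a gene normally methylated on the maternal allele and expressed from the paternal one. Its B1 lines ran from 2.18% to 55.8% with a median of 29.9%, and its B2 lines from 0.91% to 39.4% with a median of 14.3%. Of the B1 lines, 24 of 28 lay above the B2 median, and the groups overlapped. Means were 29.96% ± 14.7 and 17.03% ± 11.3 (limma's adjusted p = 0.407 as deposited, 0.0950 with line means removed and 0.0785 with the covariate). All 74 CpGs of the region in the CpG table were higher in B1, by 3.44 to 18.96 points.

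The next largest differences were 9.69 points at the region shared by Commd1 and Zrsr1, 9.06 at Gpr1 and 8.24 at Snrpn. Zrsr1 is a paternally expressed gene inside an intron of Commd1. The Snrpn region, which controls the domain that is lost in Prader-Willi syndrome in humans, averaged 35.7% ± 9.83 in B1 and 27.5% ± 10.2 in B2 (limma's adjusted p = 0.407). At H19, the paternally methylated control region of the Igf2 domain, the means were 40.8% ± 11.8 and 35.9% ± 13.6. At Meg3 they were 25.8% ± 9.93 and 23.5% ± 8.62. Peg3, at 28.9% ± 11.02 and 22.1% ± 10.5, and Kcnq1, at 33.7% ± 10.04 and 30.1% ± 11.1, had the same direction and did not pass the threshold.

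The exception was a region of Zdbf2 (chr1:63263781-63263926), a paternally expressed gene with a paternally methylated upstream region. It averaged 26.5% ± 18.6 in B1 (n = 27 with a value) and 29.1% ± 13.5 in B2 (n = 17), and 0 of its CpGs had a value of their own. With the level as covariate it was the 1 imprinting region called, as higher in B2 (-1.01, limma's adjusted p = 0.0172). It was called without the columns ending in N too (adjusted p = 0.0241). On log2 odds centred by the column mean it was not called (limma's adjusted p = 0.0712). The other Zdbf2 region (chr1:63260549-63261295) had near equal means of 27.4% ± 16.7 and 27.4% ± 12.3. With the covariate it too lay higher in B2, without passing the threshold (-0.48, limma's adjusted p = 0.0785). The neighbouring Gpr1 region of the same imprinted locus averaged 25.9% ± 14.8 in B1 and 16.9% ± 10.6 in B2. Its covariate difference was 0.47 (limma's adjusted p = 0.495), so the 3 regions of the locus did not share 1 direction.

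**Figure D4:**
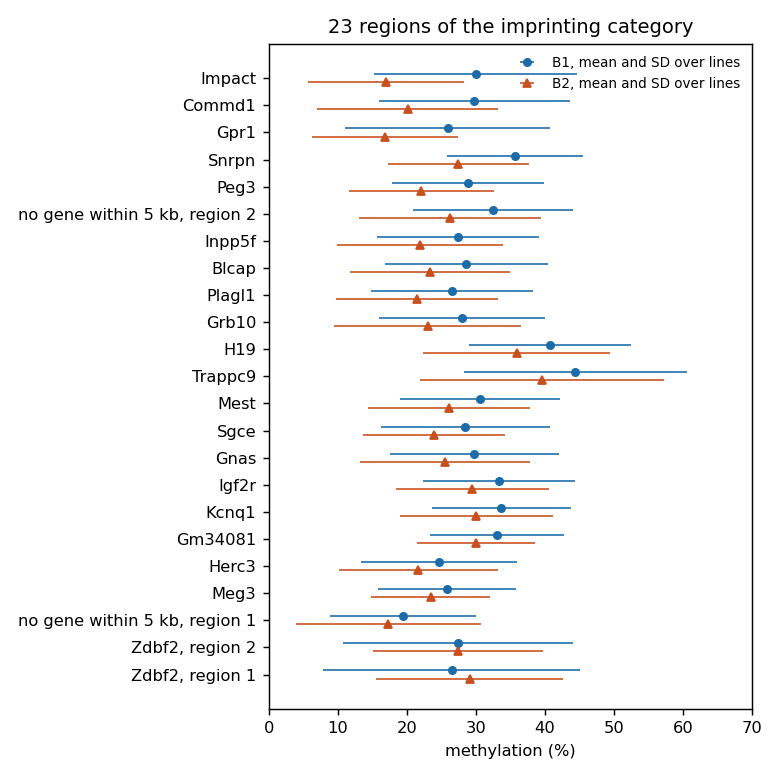
Mean and SD over lines of the 23 imprinting regions in percent, for 28 B1 lines (circles) and 18 B2 lines (triangles), ordered by the difference. Each region is labelled by 1 gene that it overlaps or that lies within 5 kb, if there is any. Impact, Commd1 and Gpr1 have the largest gaps, a Zdbf2 region has the higher mean in B2, and the SD bars of the groups overlap at every region.

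Regions of the category B6J vs 129, named by the authors after a pair of inbred strains, gave the largest differences in both directions. Of 70 kept regions, 54 (77.1%, against 85.7% of all 777) had the higher mean in B1 and 16 in B2. The differences ranged from -10.04 to 17.5 points. Limma called 0 of the 70 as deposited, where 15 (21.4%, against 10.8% of all 777 regions) had an unadjusted p under 0.05. With line means removed it called 1, Haus4, against 2 of all 777 (0.257%). The lowest value of the range was at Acly (chr11:100493701-100494238), which encodes the enzyme that makes cytosolic acetyl-CoA from citrate. Its B1 lines ran from 3.18% to 66.4% with a median of 23.96%, and its B2 lines from 6.25% to 69.2% with a median of 32.2%. Means were 26.8% ± 15 and 36.8% ± 18.2, and limma's adjusted p was 0.437 as deposited and 0.0786 with line means removed. With the covariate it was called as higher in B2 (-1.02, adjusted p = 0.0282), in 43 of 46 fits that left out 1 line, and it was not called without the columns ending in N (adjusted p = 0.0984). Of its CpGs with a value of their own, 10 of 10 were higher in B2.

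The highest value of the range was at Ppfibp1 (chr6:147003068-147003894), which encodes a liprin scaffold protein. It averaged 55.8% ± 17.6 in B1 (26.1% to 86.2%, median 58.2%, n = 26 with a value) and 38.3% ± 23.2 in B2 (12.9% to 91.7%, median 37.4%). Limma's adjusted p was 0.407 as deposited, 0.0986 with line means removed and 0.0867 with the covariate, so this difference did not pass the threshold in any of the 3 fits. Itgb5, an integrin subunit, averaged 21.03% ± 13.1 and 11.1% ± 5.92, with adjusted p = 0.407 by limma as deposited. The covariate fit called Rgcc, a regulator of the cell cycle (21.4% ± 12.6 in B1 and 12.7% ± 9.18 in B2, limma's adjusted p = 0.0172), Tmem255b and Oprk1 as higher in B1. Rgcc was also called without the columns ending in N (adjusted p = 0.0238), while Tmem255b (0.173) and Oprk1 (0.234) were not, and these were called in 18 and 14 of 46 fits that left out 1 line. It called Gm12359, Haus4 and Acly as higher in B2. The founder alleles that each line carries at these regions were not analysed here.

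Regions of genes active at the 2-cell stage had the largest median difference of the categories. Of 86 such regions 44 were kept, and 40 of the 44 had the higher mean in B1 (median 6.88 points), against 85.7% of all 777 regions. They also had high levels, with medians of 42.3% in B1 and 32.9% in B2. None was called as deposited or with line means removed, and 1 was called with the covariate, at Myo7b (chr18:32021489-32021989, 60.2% ± 18.5 and 46.4% ± 18.7, limma's adjusted p = 0.0274, and 0.154 without the columns ending in N). Usp17la, a deubiquitinase gene, averaged 49.97% ± 22.5 and 33.7% ± 18.8. Zscan4d, of the family that marks 2-cell-like cells, averaged 42.3% ± 19.5 and 29.8% ± 13.1, with adjusted p = 0.437 by limma. Several of these genes belong to families of near-identical copies, so their reads may be shared between copies.

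In the remaining large categories the median difference was 3.78 points over 138 regions of the Cancer category, 2.79 points over 220 of aging_Meer, 0.38 points over 126 of aging_Young and 0.61 points over 11 of aging_shared. A region on chromosome 16 with no gene within 5 kb (chr16:91242756-91243255) had the largest difference of the Cancer category, 54.7% ± 18.1 in B1 and 39.7% ± 18.2 in B2. Its adjusted p by limma was 0.0740 with line means removed and 0.00538 with the covariate, and it was called without the columns ending in N (adjusted p = 0.0324). Abhd14b, a hydrolase gene, averaged 30.97% ± 14.5 and 33.7% ± 14.2 and was called with the covariate as higher in B2 (-0.55, limma's adjusted p = 0.00538, and 0.0132 without the columns ending in N). Esr1, which encodes estrogen receptor alpha, averaged 55.6% ± 21.3 and 44.2% ± 19.3 and did not pass the threshold in any fit. Gm39150, an aging_shared region (chr8:26973424-26973924), averaged 56.0% ± 16.4 and 42.7% ± 18 and was called with the covariate as higher in B1 (0.49, limma's adjusted p = 0.00538). In aging_Young 4 of 126 regions were called with the covariate, against 39 of all 777 (5.02%). All 4 were higher in B2, as were 23 of all 777 (2.96%). Among the 4 was Ccdc30, at 0.85% ± 0.68 and 1.26% ± 0.81. Their CpGs with a higher mean in B2 were 17 of 22 at Actl7b and 15 of 29 at Bik. At Tnfaip2 they were 7 of 12 and at Ccdc30 5 of 12. Averaged over its CpGs, Ccdc30 was at 0.62% in both groups.

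**Figure D5:**
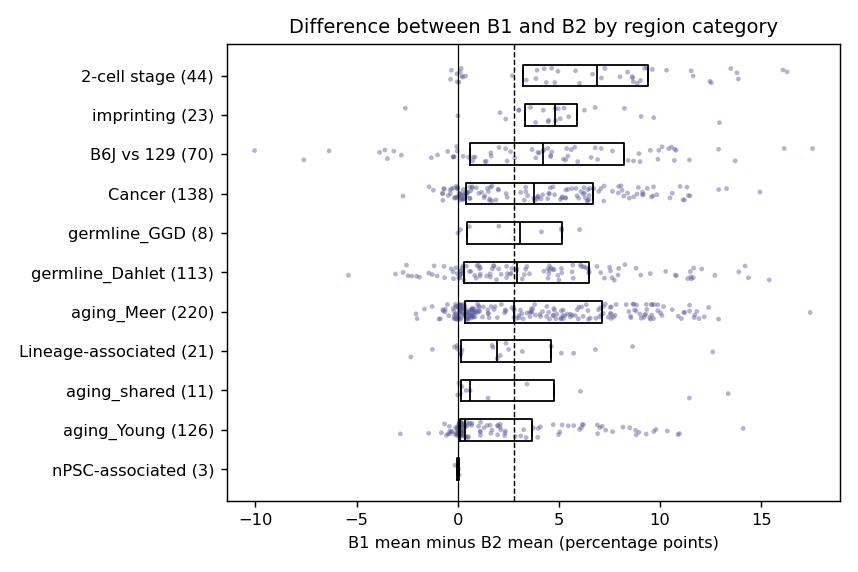
Each point is 1 region, with the B1 mean minus the B2 mean in percentage points on the horizontal axis, by the authors' category with the number of kept regions in brackets. Boxes give the quartiles and median, the solid line marks 0 and the dashed line the median of all 777 regions, 2.77 points. The 2-cell stage category has the largest median, 6.88 points, and B6J vs 129 the widest range.

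Genes that mark the pluripotent state and the lineages were compared to check the label of the cells as far as methylation of the target regions can. Of the regions named below, those at Tbx3, Sox17 and Tet3 overlapped a gene but no promoter of the RefSeq promoter table. The 3 kept regions at Nanog, Tbx3 and Zfp42, genes of naive pluripotency, were nearly unmethylated in both groups. Nanog averaged 0.38% ± 0.65 in B1 and 0.51% ± 0.80 in B2, Tbx3 0.27% ± 0.47 and 0.20% ± 0.46, and Zfp42 0.76% ± 1.18 and 0.72% ± 0.88. None differed between the groups by any fit. Among 21 regions of the Lineage-associated category, 16 (76.2%, against 85.7% of all 777) had the higher mean in B1 (median 1.95 points). The largest difference there was at Musk, the receptor kinase of the neuromuscular junction, at 62.3% ± 17.96 and 49.7% ± 18.8 (limma's adjusted p = 0.420). Otx2, at 0.78% ± 0.51 and 0.94% ± 0.65, and Sox17, at 5.89% ± 2.95 and 5.75% ± 2.23, were low in both groups. Of the DNA methylation machinery, Dnmt3l, the cofactor of de novo methylation, averaged 35.8% ± 17.2 and 34.7% ± 15.9. Tet3, a dioxygenase that oxidises methylcytosine, averaged 66.6% ± 17.1 and 59.5% ± 19.6. Neither of these passed the threshold.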

How the data were processed

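Per the labels, EM-seq libraries of mouse embryonic stem cells were captured with a Twist panel. The authors deposited a table of methylation fractions per target region and a table of fractions per CpG. The submitters' processing notes name the assembly mm10, Bowtie2, Bismark and Trim Galore 0.6.4, without their order or settings. The deposited tables' names give a coverage filter of 10, and depth per value is unknown. By name, 32 of the 46 columns matched 1 title, and 14 were used only for their prefix. Fractions are reported as percent.

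Regions were tested with limma 3.58.1 (R 4.3.3) in 3 fits: on log2((fraction + 0.01)/(1 - fraction + 0.01)), on fractions minus the column mean, and on log2 odds with the column mean as covariate. P-values were Benjamini-Hochberg adjusted over all 777 regions at 0.05. Line levels were compared by permutation with 100000 resamples (Python 3.11.15, NumPy 2.4.6, pandas 2.3.3). The first and the last of these fits were tested on simulated data, and the fit on fractions minus the column mean was not. Alternatives covered the pseudocount, transform, centring, region filter, CpG table, groups fitted and lines used. Coordinates are as in the deposited table, and genes came from RefSeq tables of GRCm38.p6: 700 kept regions overlapped a gene and 64 lay within 5 kb of one. Regions were named from the 10 with the smallest p in each direction of the first 2 fits. The 4 with the largest difference in each category and gene list, and all imprinting regions, were also drawn on. Only part of these lists is named in the text, with no further fixed rule. Regions called only with the covariate, and a few other list members, were chosen after seeing their values. The comparison and the gene lists were chosen with earlier results of these data known.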

Additional observations from a re-analysis of the deposited data

Results flagged for a closer look

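Among the 6 B1 columns whose names end in N, the lowest line level, 14.3% at B37N, lay farther from the other 5 than the spread of the group allows by Dixon's test at the 95% level. The 6 columns averaged 25.8% ± 6.15, with the highest at 31.3%. The column B37, whose name lacks the N, was at 16.4%. Chance alone marks about 1 in 20 groups, and 3 groups were checked.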

How the results depend on the processing

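The overall difference of 3.71 points kept its direction and did not pass the threshold under every alternative run, from 2.30 points in the CpG table to 4.64 points with 1-title lines, and between 2.82 (without B2 line 31) and 4.74 (without B2 line 9) with 1 line left out. The SD ratio of 1.10 lay between 1.10 and 1.24 with permutation p from 0.300 to 0.624. The values as deposited gave 0 calls under every alternative that kept all lines or dropped a class of lines, and 0 to 1 with 1 line left out. With line means removed, the 2 calls became 0 with B37 and B37N averaged, 0 without the columns ending in N, 1 from CpG-table means, 5 with 1-title lines (2 higher in B1 and 3 in B2), 13 with all 4 prefixes in the fit (7 and 6), 14 centred by the column median (12 and 2), 40 on centred log2 odds (17 and 23) and 39 with the covariate (16 and 23). With 1 line left out they ranged from 0 to 9. No calls remained without B1 line A18, A23, A5, A9N, B15N, B25, B33, B37, B37N, B39, B43N, B44 or B45, or B2 line 1, 11, 12, 2, 22, 24, 27, 2A, 3 or 32. There was 1 without B1 line A16 or B2 line 18, and 3 to 9 without B1 line B14, B18, B22, B29 or A22, or B2 line 17, 7, 8 or 9. The 39 calls of the covariate fit became 12 without the columns ending in N, 27 with B37 and B37N averaged and 34 with 1-title lines, and ranged from 23 (without B2 line 9) to 53 (without B2 line 7) with 1 line left out. The cause of these shifts was not tested. Depth is unknown, so noise from few reads could not be separated from differences between lines. No paired analysis was possible because the line names carry no number that pairs a B1 line with a B2 line.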

Other observations

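Regions of immune signalling genes, a list of 4 regions, had the higher mean in B1 at all 4, against 85.7% of all 777 regions. Their median difference was 8.62 points against 2.77 over all regions. Tnfrsf1a, a receptor of tumour necrosis factor, averaged 34.9% ± 17.1 in B1 and 25.3% ± 16.7 in B2, and Tlr2, a receptor of bacterial lipoproteins, 43.5% ± 18.7 and 35.9% ± 18.2. Irak3, an inhibitor of Toll-like receptor signalling, had a pair of regions, at 23.3% ± 23.7 and 13.2% ± 14.9 and at 18.98% ± 18.2 and 11.3% ± 12.7. The SD of both Irak3 regions was close to or above the mean in both groups. None of the 4 passed limma's threshold in any of the 3 fits, and 0 had an unadjusted p under 0.05.

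Of 14 regions at lineage transcription factors and other lineage genes, 11 (78.6%, against 85.7% of all 777) had the higher mean in B1. Their median difference was 0.74 points. Nkx2-1, a factor of lung, thyroid and forebrain, had the higher mean in B2, at 19.9% ± 17.2 and 22.7% ± 15.7. Foxa2, a factor of endoderm, had 3 regions with means of 3.79% to 9.36% in B1 and 4.24% to 8.32% in B2. The region within 5 kb of the gene, chr2:148048760-148049259, was called with the covariate as higher in B2 (3.79% ± 2.16 and 4.48% ± 1.91, limma's adjusted p = 0.0172), and not without the columns ending in N (adjusted p = 0.0880). On the X chromosome 14 of 20 regions were kept. Of the 14, 11 (78.6%, against 85.7% of all 777) had the higher mean in B1 (median 5.04 points). Limma called 0 of them in any of the 3 fits. At an unadjusted p under 0.05 there were 2 of the 14 as deposited, 5 with line means removed and 3 with the covariate, or 14.3%, 35.7% and 21.4%, against 10.8%, 17.5% and 19.7% of all 777 regions.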
